A study of Mus musculus with 36 samples.

Results

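At 24 h of TGF-β1 treatment, 369 of 19938 genes responded differently in common dendritic progenitors (CDP) and multipotent progenitors (MPP). The response of a cell type was taken as its mean log2 level at 24 h minus its mean log2 level at 0 h. The response difference was the CDP response minus the MPP response, so a positive value stands for a larger rise, or a smaller fall, in CDP. A gene was called when the Benjamini-Hochberg adjusted p of the limma interaction contrast was below 0.01 and the response difference was at least 1 on the log2 scale in size, and 1 log2 unit stands for a 2-fold change. Of the called genes, 144 had a positive response difference (0.722% of the genes tested) and 225 a negative one (1.13%), together 1.85%. The comparison used 12 of the 36 arrays of the study, 3 in each of 4 groups.

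The groups were CDP kept for 24 h with TGF-β1 (the recombinant human protein, 10 ng/ml), untreated CDP at 0 h, MPP treated in the same way for 24 h, and untreated MPP at 0 h. Both progenitor types were grown from mouse bone marrow in a cytokine cocktail and then purified by FACS, and the 3 arrays of a group are described in the study as biological replicates. The strain, sex and age of the mice are not given in the sources used here. No untreated cells from later times were analysed here, so 24 h of TGF-β1 and 24 h of further culture cannot be told apart. The groups are RNA from many cells, in which fewer cells of a type and less RNA per cell cannot be told apart.

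TGF-β1 signals through a pair of receptor kinases that phosphorylate Smad2 and Smad3, which enter the nucleus with Smad4 and act on target genes with partner factors of the cell type. MPP can give rise to all myeloid and lymphoid cells. CDP lie further along the same path and give rise to conventional and plasmacytoid dendritic cells. In the skin, TGF-β1 is needed for Langerhans cells, a dendritic type cell that sits between keratinocytes and is held there by epithelial adhesion molecules.

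The labels were set against marker genes. Over 6 measured MPP markers the mean level lay between 9.51 and 9.63 on the CDP arrays at 0 h and between 10.5 and 10.6 on the MPP arrays at 0 h. Over 8 CDP markers it lay between 11.8 and 11.9 in CDP and at no more than 11.1 in MPP at 0 h. The MPP arrays also carried neutrophil granule transcripts, since the mean over 5 neutrophil markers was 12.5 to 13.1 in MPP at 0 h, against 8.63 to 9.16 in CDP at 0 h. Elane, which encodes neutrophil elastase, averaged 8.38 in CDP and 13.7 in MPP at 0 h, and its response difference was -0.06. The mean over 4 mast cell markers was 6.17 to 6.48 in CDP and 8.97 to 9.16 in MPP at 0 h. The B cell, T and NK cell and erythroid markers measured were below the median level of all genes (7.95) on all 12 arrays. Cd207, which encodes langerin and defines mature Langerhans cells, was below that level on all 12 arrays as well. Its mean was 6.10 in CDP at 24 h against 6.13 at 0 h, and 6.07 in MPP at 24 h against 6.13 at 0 h. The CDP arrays at 2 h held the lowest correlation between replicates, 0.985, and none of the 369 calls was lost without the array that stood apart there, replicate 3.

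Most of the genes called for the response difference had moved in CDP. Within CDP, 275 genes rose (1.38%) and 359 fell (1.8%) between 0 h and 24 h, and within MPP 143 rose (0.717%) and 92 fell (0.461%). Among the 369 genes, 251 were called in CDP and not in MPP, 102 of them up and 149 down. In 29 the MPP change was called and the CDP change was not. A further 30 moved the same way in both cell types, and in all 30 the change in CDP was the larger one. In 56 neither change alone was called, and in 3 the changes were called in opposite directions. In 368 of the 369 genes the 3 CDP changes of same-numbered arrays did not overlap the 3 MPP changes, against 29.1% of all genes tested. The genes were chosen on these same arrays, which nearly fixes that count, so it is a description only.

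**Figure D1:**
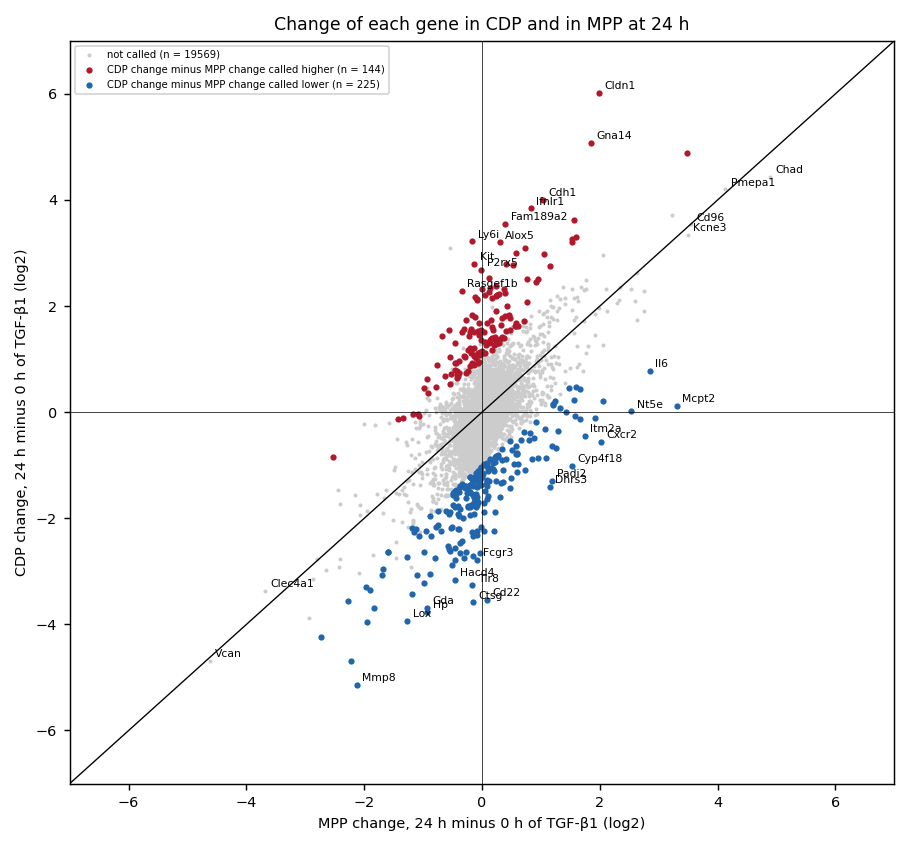
Change between 0 h and 24 h of TGF-β1 in CDP (vertical axis, log2) against the change in MPP (horizontal axis, log2) for all genes tested, with genes called for the response difference coloured. The 144 genes with a positive difference lie above the diagonal and the 225 with a negative difference below it, and most spread along the CDP axis.

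The largest response difference of all genes was that of Cldn1, which encodes claudin-1, the membrane protein that seals tight junctions between epithelial cells. Its log2 level was 12.99, 12.60 and 13.18 in CDP at 24 h, against 6.76, 6.96 and 6.97 at 0 h. In MPP it was 9.03, 8.39 and 8.77 at 24 h, against 6.63, 6.59 and 7.04 at 0 h. Both cell types began at about the same level and no array at 24 h overlapped the arrays at 0 h in either. The gene rose by 6.02 in CDP and by 1.98 in MPP, a response difference of 4.04 ± 0.24 (SE) with an adjusted p of 7.0e-12. In CDP the change was 1.03 at 2 h, 1.82 at 4 h, 2.88 at 8 h, 4.26 at 12 h and 6.02 at 24 h, whereas in MPP the changes up to 12 h lay between -0.05 and 0.09. The difference was called from 4 h onward.

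Cdh1, which encodes E-cadherin, the adhesion molecule that ties Langerhans cells to keratinocytes, had levels of 12.53, 12.94 and 12.73 in CDP at 24 h, against 8.33, 9.29 and 8.60 at 0 h. In MPP they were 8.69, 8.46 and 8.14 at 24 h, against 7.24, 7.62 and 7.32 at 0 h. CDP arrays at 24 h thus lay above all others, and the MPP arrays at 24 h overlapped the CDP arrays at 0 h. The response difference was 2.96 ± 0.29 (adjusted p = 4.1e-08), with a rise of 4.00 in CDP and of 1.04 in MPP, and it was first called at 8 h.

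Epcam encodes a homophilic adhesion molecule of epithelia and Langerhans cells. It stood at 8.67, 8.95 and 9.02 in CDP at 24 h, against 6.32, 6.44 and 6.33 at 0 h. The MPP arrays held 6.62, 6.36 and 6.40 at 24 h, against 6.29, 6.36 and 6.36 at 0 h. Only the CDP arrays at 24 h departed from the rest, and the response difference was 2.40 ± 0.11 (adjusted p = 1.2e-13), called at 24 h and at no earlier time.

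Of the 11 Langerhans cell genes measured, 5 were called higher and 0 lower, and the median response difference was 0.57, against 0.00 over all genes. The other 3 were Ccr6, the receptor for the chemokine CCL20 (2.21 ± 0.20), Itgae, which encodes the CD103 integrin chain that binds E-cadherin (1.41 ± 0.22), and Ahr, the aryl hydrocarbon receptor (1.13 ± 0.24). Itgae rose in both cell types, by 4.88 in CDP and by 3.47 in MPP. The response difference of Ahr was 0.86 without replicate 2 of MPP at 0 h, below the limit of 1. Axl, a receptor kinase that clears dying cells, rose by 3.71 in CDP and by 3.23 in MPP, and its difference of 0.48 was not called.

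Cldn1 was the only one called for the difference in the list of 24 epithelial junction and adhesion genes, which did not hold Cdh1 and Epcam. Several others rose in both cell types with differences under 1, among them Dsp, which encodes desmoplakin (2.32 in CDP and 1.53 in MPP), F11r, which encodes junctional adhesion molecule A (2.33 in CDP and 1.76 in MPP), and Tjp1, which encodes the scaffold ZO-1 (1.98 in CDP and 1.20 in MPP). The median response difference of these 24 genes was 0.05. Zeb2, a repressor known to bind the E-box letters CACCTG in the Cdh1 promoter, fell by 1.91 in CDP and changed by -0.40 in MPP, a response difference of -1.51 ± 0.18 (adjusted p = 8.7e-07). Its levels were 9.65, 9.07 and 10.02 in CDP at 24 h, against 11.51, 11.37 and 11.59 at 0 h. They were 11.14, 11.38 and 11.26 in MPP at 24 h, against 11.55, 11.77 and 11.68 at 0 h. CDP arrays at 24 h were thus the low ones, with no overlap with the other 9. Fn1, which encodes fibronectin, differed in the same direction by -2.33 ± 0.16.

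The 250 bases before the start of 3 genes with a positive difference, chosen after their values were seen, are shown. The E-box letters CACCTG, or CAGGTG where they lie on the other strand, are in capitals. No promoter of Cdh1 was available in the sequences used. Whether Zeb2 acts on any of these genes was not tested. The response difference of Zeb2 was -0.17 at 4 h and was first called at 12 h. The Zeb2 level itself had changed by -0.89 in CDP and by -0.90 in MPP at 2 h, and by -1.12 and -0.35 at 8 h. The difference of Cldn1 was first called at 4 h, those of Cdh1 and Gna14 at 8 h, and that of Epcam at 24 h. The sequences are RefSeq promoters of the mouse build GRCm38.p6, read 5′ to 3′ on the strand of the gene, at chr16:26371840-26372089 (minus strand) for Cldn1, chr17:87635729-87635978 (plus strand) for Epcam and chr19:16435417-16435666 (plus strand) for Gna14.
Cldn1: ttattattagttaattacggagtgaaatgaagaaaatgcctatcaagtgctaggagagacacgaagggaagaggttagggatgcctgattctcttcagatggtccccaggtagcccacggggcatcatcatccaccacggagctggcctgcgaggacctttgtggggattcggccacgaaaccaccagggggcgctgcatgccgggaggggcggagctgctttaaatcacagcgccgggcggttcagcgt
Epcam: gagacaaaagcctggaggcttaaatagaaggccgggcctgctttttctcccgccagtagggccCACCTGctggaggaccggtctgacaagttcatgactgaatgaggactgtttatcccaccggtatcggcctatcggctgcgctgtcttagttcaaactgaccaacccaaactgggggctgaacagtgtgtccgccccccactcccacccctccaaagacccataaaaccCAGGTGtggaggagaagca
Gna14: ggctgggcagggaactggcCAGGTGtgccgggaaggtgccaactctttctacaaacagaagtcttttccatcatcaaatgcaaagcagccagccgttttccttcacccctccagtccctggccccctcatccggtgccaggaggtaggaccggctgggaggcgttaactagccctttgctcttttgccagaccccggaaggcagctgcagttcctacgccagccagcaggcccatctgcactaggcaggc
The Cldn1 window held 0 matches, the Epcam window 2, whose first bases lie 187 and 19 bases before the start, and the Gna14 window 1, at 231 bases before the start. A match was found in 25 of the 106 genes called higher with a promoter in the table (23.6%), in 33 of the 175 called lower (18.9%) and in 3018 of all 15614 genes tested that had one (19.3%).

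**Figure D2:**
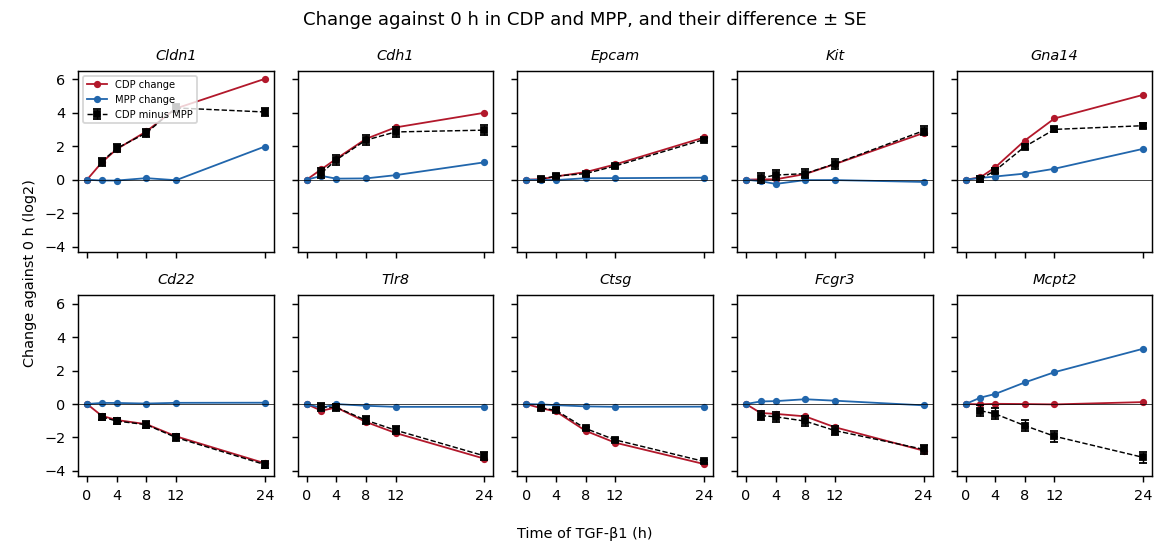
Change from 0 h of 10 genes over 24 h of TGF-β1 in CDP and in MPP, with the response difference and its SE, on the log2 scale against time in hours. Cldn1 changed by 1.82 in CDP and by -0.05 in MPP at 4 h, whereas Kit changed by 0.93 in CDP at 12 h and by 2.79 at 24 h.

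Of 18 feedback inhibitors and corepressors of the TGF-β1 pathway, 1 was called for the response difference (5.6%). Of 23 receptors, Smads and ligands 2 were called (8.7%), against 1.85% of all genes. Of the 18, 6 rose in CDP and 6 in MPP, and the median difference was 0.04. Smad7, the inhibitory Smad, rose by 1.74 in CDP and by 1.56 in MPP, a difference of 0.18 with a 95% interval from -0.09 to 0.45. Skil, which encodes the corepressor SnoN, rose by 1.79 in CDP and by 1.60 in MPP. Pmepa1, a membrane protein that withholds Smads from the receptor, stood at 12.09, 12.06 and 12.11 in CDP at 24 h, against 7.74, 8.79 and 7.12 at 0 h, and at 11.82, 11.63 and 11.72 in MPP at 24 h, against 8.11, 7.18 and 7.48 at 0 h. The arrays of both cell types at 24 h lay far above those at 0 h, and the difference was 0.07 with an interval from -0.51 to 0.66.

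Smurf1, a ubiquitin ligase that marks receptors and Smads for degradation, was the called member of the feedback inhibitors and corepressors. It had levels of 11.39, 11.11 and 11.44 in CDP at 24 h, against 9.34, 9.54 and 9.57 at 0 h, and of 9.66, 9.61 and 9.62 in MPP at 24 h, against 9.08, 9.22 and 9.20 at 0 h. The CDP arrays at 24 h were the high ones, and the response difference was 1.37 ± 0.16 (adjusted p = 5.1e-07). The 2 called receptors, Smads and ligands were lower. Smad3, one of the 2 receptor-activated Smads of the pathway, had levels of 7.71, 7.75 and 7.87 in CDP at 24 h, against 9.72, 9.73 and 9.74 at 0 h, and of 9.42, 9.17 and 9.43 in MPP at 24 h, against 9.83, 9.69 and 9.69 at 0 h. It fell in CDP on every array, and the response difference was -1.56 ± 0.12 (adjusted p = 5.7e-10). Thbs1, which encodes thrombospondin-1, an activator of latent TGF-β, differed by -1.26 ± 0.25. It lost the call in a fit of the 12 arrays alone (adjusted p = 0.023) and without replicate 2 of all groups (0.018). Without replicate 3 of all groups the difference was -0.97 (0.034). Tgfbr1, the type I receptor, rose by 2.10 in CDP and by 1.62 in MPP. Its difference of 0.48 had an adjusted p of 0.004 and was not called for its size.

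Beyond these groups, Gna14, which encodes a Gq class G protein subunit, had the third largest positive response difference among called genes. Its levels were 11.56, 11.67 and 11.71 in CDP at 24 h, against 6.66, 6.59 and 6.48 at 0 h, and 8.91, 8.24 and 8.19 in MPP at 24 h, against 6.68, 6.49 and 6.63 at 0 h. Both cell types rose from the same low level without overlap, by 5.07 in CDP and by 1.85 in MPP, and the difference was 3.23 ± 0.16 (adjusted p = 4.9e-13). Ifnlr1, the receptor chain for interferon lambda, stood at 11.38, 10.96 and 11.07 in CDP at 24 h, against 7.31, 7.23 and 7.34 at 0 h, and at 8.24, 7.98 and 8.03 in MPP at 24 h, against 7.17, 7.28 and 7.32 at 0 h. Its rise of 3.84 in CDP was called and its change of 0.83 in MPP was not, and the difference of 3.01 ± 0.18 was called from 4 h onward (adjusted p at 24 h = 8.8e-12). Il7r, the receptor chain for interleukin-7, was likewise higher by 1.96 ± 0.18.

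Kit, the receptor for stem cell factor and a marker of early progenitors, behaved in another way. Its levels were 11.70, 10.79 and 11.78 in CDP at 24 h, against 8.40, 8.86 and 8.63 at 0 h, and 11.19, 11.05 and 11.25 in MPP at 24 h, against 11.30, 11.20 and 11.40 at 0 h. Untreated CDP were the low group, and after 24 h the CDP and MPP arrays overlapped. Kit rose by 2.79 in CDP and changed by -0.14 in MPP, a response difference of 2.93 ± 0.28 (adjusted p = 2.8e-08), first called at 24 h. Of 14 stem and multipotent progenitor genes, Kit was the only one called, against 1.85% of all genes. The median difference of the list was 0.15.

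Alox5 encodes the lipoxygenase at the head of leukotriene synthesis. It stood at 9.86, 11.09 and 10.04 in CDP at 24 h, against 6.95, 7.21 and 7.22 at 0 h, and at 9.11, 9.46 and 9.74 in MPP at 24 h, against 8.73, 9.33 and 9.34 at 0 h. CDP arrays were the lowest at 0 h and lay above the MPP arrays at 24 h, and the response difference was 2.90 ± 0.21 (adjusted p = 1.6e-10). Fam189a2 (3.16 ± 0.20), P2rx5, an ATP-gated cation channel (2.70 ± 0.24), and Rasgef1b, an exchange factor for small GTPases (2.64 ± 0.56), completed the 10 largest positive differences among called genes, with Ly6i.

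Ly6i, a GPI-anchored Ly6 family member, differed by 3.38 ± 0.65 (adjusted p = 0.00044), and its untreated replicates were scattered. The levels were 11.87, 12.36 and 12.22 in CDP at 24 h, against 8.30, 8.24 and 10.25 at 0 h, and 9.15, 9.12 and 9.26 in MPP at 24 h, against 8.26, 9.38 and 10.38 at 0 h. Replicate 3 was high in both untreated groups. Without replicate 2 the difference was 2.88 with an adjusted p of 0.051, and Rasgef1b had an adjusted p of 0.025 without replicate 1 and of 0.026 without replicate 2. Close family members of Ly6i may share probes, which was not tested.

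**Figure D3:**
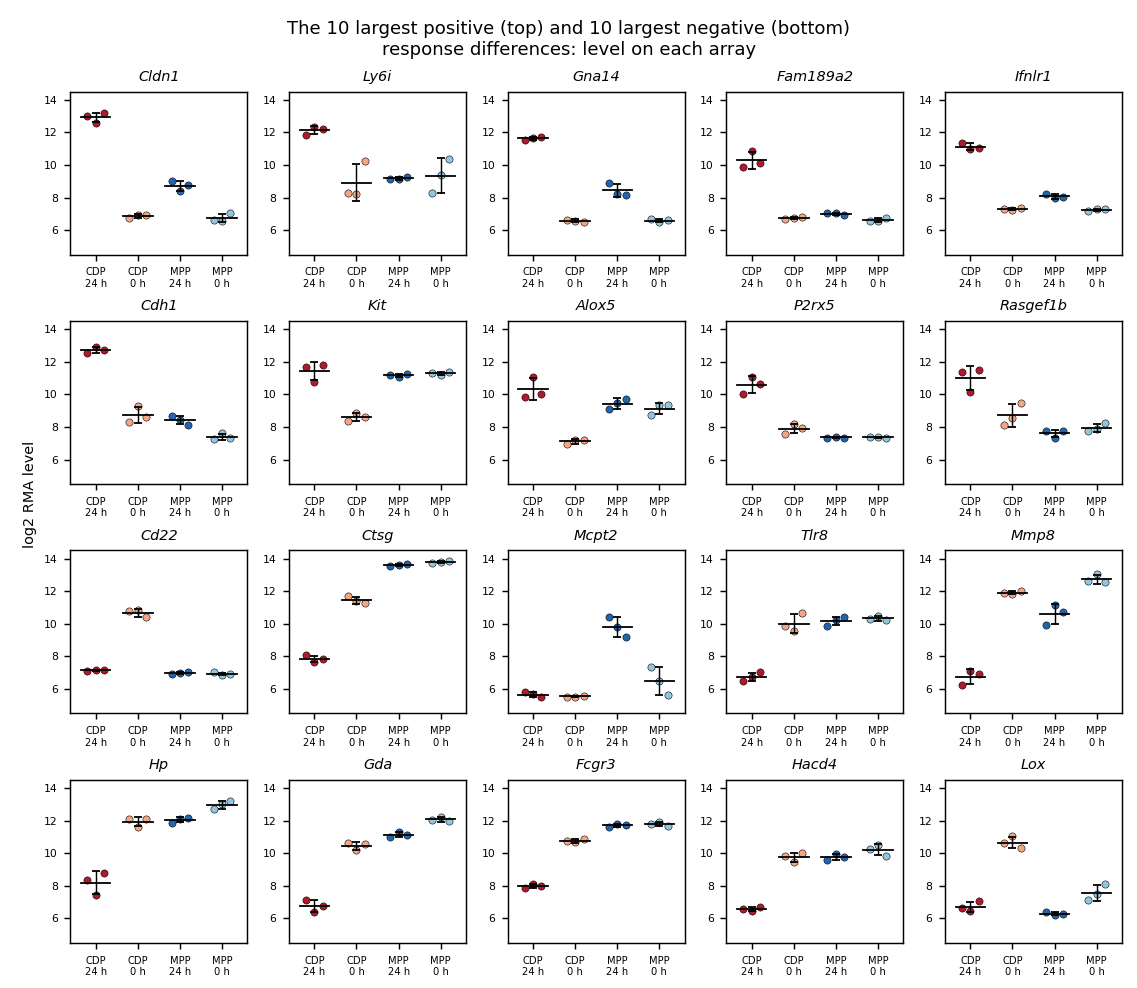
Log2 levels of the 10 called genes with the largest positive and the 10 called genes with the largest negative response difference in CDP at 24 h, CDP at 0 h, MPP at 24 h and MPP at 0 h. Points are arrays, bars the mean and error bars the SD (n = 3 each), and for Cldn1 the CDP arrays at 24 h sit between 12.60 and 13.18 against 8.39 to 9.03 for MPP at 24 h.

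The largest negative response difference was that of Cd22, which encodes a sialic acid-binding inhibitory receptor best known from B cells. Its levels were 7.12, 7.16 and 7.15 in CDP at 24 h, against 10.80, 10.82 and 10.41 at 0 h, and 6.94, 7.00 and 7.07 in MPP at 24 h, against 7.02, 6.85 and 6.90 at 0 h. Untreated CDP were the only group that stood high. Cd22 fell by 3.54 in CDP and changed by 0.08 in MPP, a difference of -3.62 ± 0.20 (adjusted p = 2.0e-12), called from 4 h onward.

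Cd22 belonged to 25 lectin, CD300 and Siglec receptors of myeloid cells, of which 11 were called lower and 2 higher, with a median difference of -0.94. Of these 25 genes, 16 fell in CDP and 8 fell in MPP. Many were C-type lectin or paired receptors with ITAM or ITIM signalling, such as Clec7a, the beta-glucan receptor dectin-1 (-2.10 ± 0.15), Cd300lb (-2.09 ± 0.26), Clec4n, which encodes dectin-2 (-1.99 ± 0.31), Clec4a2, which encodes the inhibitory receptor DCIR (-1.97 ± 0.22), and Pilra (-1.87 ± 0.19). The 2 that were higher were the Siglecs Siglece (1.88 ± 0.17) and Cd33 (1.19 ± 0.15). Siglech, another Siglec called higher (1.69 ± 0.20), was counted among the plasmacytoid dendritic cell genes instead. Clec4a1 fell by 3.36 in CDP and fell by 3.69 in MPP, and its difference was 0.32 with an interval from -0.60 to 1.24.

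Of 21 monocyte and macrophage genes, 10 were called lower and 0 higher, and the median difference was -0.47. Fcgr3, a low-affinity receptor for IgG, stood at 7.84, 8.09 and 8.00 in CDP at 24 h, against 10.73, 10.66 and 10.90 at 0 h, and at 11.61, 11.78 and 11.74 in MPP at 24 h, against 11.77, 11.91 and 11.67 at 0 h. It fell by 2.79 in CDP while the MPP arrays of both times overlapped, and the difference was -2.71 ± 0.29 (adjusted p = 1.4e-07). Adgre1, which encodes the F4/80 antigen, fell by 3.44 in CDP and fell by 1.20 in MPP (difference -2.24 ± 0.20). F13a1, which encodes coagulation factor XIII A chain (-2.23 ± 0.25), Lyz2, which encodes lysozyme (-1.74 ± 0.23), and the high-affinity IgG receptor Fcgr1 (-1.36 ± 0.29) were also lower. Without the replicate block 5 of the 21 were called lower. Fcgr1 had an adjusted p of 0.045 without it, and Adgre1, F13a1 and Clec4a2 had adjusted p of 0.017, 0.029 and 0.017 without it.

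Of 13 Toll-like receptor genes, 3 were called, all lower, 10 were not, and the median difference was -0.36. Tlr8, an endosomal RNA sensor, stood at 6.51, 6.71 and 7.02 in CDP at 24 h, against 9.84, 9.56 and 10.65 at 0 h, and at 9.87, 10.23 and 10.40 in MPP at 24 h, against 10.28, 10.51 and 10.22 at 0 h. Only the CDP arrays at 24 h were low, and the response difference was -3.10 ± 0.23 (adjusted p = 2.0e-10). Tlr7, its close relative, differed by -2.15 ± 0.33, and Ly96, which encodes the MD-2 partner of Tlr4, by -1.45 ± 0.15. Of the 3, Tlr8 alone was called without the replicate block.

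Neutrophil granule genes were split. Ctsg, which encodes cathepsin G, stood at 8.06, 7.68 and 7.84 in CDP at 24 h, against 11.68, 11.38 and 11.28 at 0 h, and at 13.56, 13.63 and 13.66 in MPP at 24 h, against 13.73, 13.77 and 13.83 at 0 h. The MPP arrays stayed near their level and the CDP arrays fell without overlap, so that the response difference was -3.43 ± 0.11 (adjusted p = 9.8e-17). Mmp8, which encodes neutrophil collagenase, fell by 5.14 in CDP and fell by 2.13 in MPP (difference -3.01 ± 0.27). Hp, which encodes haptoglobin, and Prtn3, which encodes proteinase 3, differed by -2.83 ± 0.26 and -1.28 ± 0.14. These 4 were the called members of 21 measured, whose median was -0.15, and Mpo, which encodes myeloperoxidase, differed by 0.03. Csf3r, the receptor for the neutrophil growth factor G-CSF, differed by -2.18 ± 0.10.

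Matrix genes and proteases were lower in 6 of 22 and higher in 0. Besides Fn1, Thbs1 and Mmp8, they included Lox, a collagen cross-linking oxidase, whose levels were 6.64, 6.45 and 7.07 in CDP at 24 h, against 10.61, 11.03 and 10.33 at 0 h. In MPP they were 6.40, 6.18 and 6.30 at 24 h, against 7.13, 7.47 and 8.09 at 0 h. Lox fell in both cell types to a like low level from which CDP had stood further away at 0 h, and the difference was -2.67 ± 0.26 (adjusted p = 2.3e-08). The remaining genes among the 10 largest negative differences were Gda, a guanine deaminase (-2.75 ± 0.16), and Hacd4, an enzyme of very long chain fatty acid synthesis (-2.70 ± 0.17).

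In a minority of the called genes the change at 24 h was the larger one in MPP. Mcpt2, which encodes a mucosal mast cell protease, had levels of 5.82, 5.68 and 5.49 in CDP at 24 h, against 5.54, 5.51 and 5.59 at 0 h, and of 10.41, 9.79 and 9.19 in MPP at 24 h, against 7.36, 6.47 and 5.64 at 0 h. The CDP arrays overlapped between the times and the MPP arrays rose by 3.31 with no overlap, and the difference was -3.19 ± 0.33 (adjusted p = 7.5e-08). Replicate 1 was the highest and replicate 3 the lowest of the MPP arrays at both times, and without the replicate block the adjusted p was 0.028. The mast cell list as a whole had 2 genes called higher and 1 lower of 14. Hpgds, a prostaglandin D synthase, had a response difference of 1.74 ± 0.18, and Cpa3, a carboxypeptidase of mast cell granules, one of 1.23 ± 0.15. The level of Cpa3 was still the lower one in CDP, at 8.1, 7.5 and 7.8 at 24 h, against 12.3, 12.0 and 12.0 in MPP at 24 h.

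Nt5e, which encodes the adenosine-producing ectoenzyme CD73, stood at 7.90, 7.74 and 7.56 in CDP at 24 h, against 7.62, 7.88 and 7.67 at 0 h, and at 11.03, 11.17 and 11.11 in MPP at 24 h, against 8.65, 8.71 and 8.35 at 0 h. At 24 h it had risen by 2.54 in MPP, and in CDP the change was 1.02 at 2 h, 1.57 at 4 h, 1.43 at 8 h and 0.01 at 24 h. The difference at 24 h was -2.52 ± 0.18 (adjusted p = 9.1e-11). Cxcr2, a chemokine receptor of neutrophils, changed by -0.55 in CDP and rose by 2.01 in MPP (difference -2.57 ± 0.29). Its changes had been 1.19 at 4 h and 1.43 at 8 h in CDP, and 1.66 and 1.99 in MPP. Itm2a, a membrane protein known from developing T cells, changed by -0.45 in CDP and rose by 1.74 in MPP (difference -2.19 ± 0.14). Il6, the cytokine interleukin-6, changed by 0.78 in CDP, which was not called, and rose by 2.84 in MPP. Its difference of -2.07 ± 0.46 had an adjusted p of 0.002, of 0.010 without replicate 2 of CDP at 0 h, where it was -1.86, of 0.053 without replicate 1 and 0.079 without replicate 2 of all groups, and of 0.015 without the replicate block.

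In 3 genes the changes were called in opposite directions, and all 3 fell in CDP and rose in MPP. Dhrs3, which encodes a retinaldehyde reductase, stood at 9.42, 9.22 and 9.56 in CDP at 24 h, against 10.75, 10.87 and 10.82 at 0 h, and at 11.61, 11.52 and 11.62 in MPP at 24 h, against 10.52, 10.59 and 10.20 at 0 h. The cell types were close at 0 h and moved apart without overlap, with a difference of -2.56 ± 0.16 (adjusted p = 1.2e-11). Cyp4f18, an enzyme that breaks down leukotriene B4, changed by -1.01 in CDP and by 1.53 in MPP (difference -2.54 ± 0.14).

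Padi2, which encodes a peptidylarginine deiminase, showed a crossing of the levels. They were 8.99, 8.75 and 9.23 in CDP at 24 h, against 10.33, 10.28 and 10.24 at 0 h, and 9.65, 9.41 and 9.35 in MPP at 24 h, against 8.28, 8.49 and 8.11 at 0 h. CDP were thus the higher cell type at 0 h and the lower one at 24 h on every array, and the difference was -2.47 ± 0.15 (adjusted p = 1.2e-11). No called gene had levels more than 1 apart at both times in opposite order.

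Genes of dendritic cell maturation gave positive differences whose size and calls hung on single arrays. Of 14 costimulation and maturation genes, 6 were called higher and 1 lower, with a median of 1.05. Of 16 targets of NF-κB, 4 were called higher and 0 lower, with a median of 0.82 and a positive difference in all 16. The lists overlap, since both hold Cd40, so their counts here and below are not independent. Cd40, the receptor through which T cells license dendritic cells, stood at 12.56, 11.61 and 12.42 in CDP at 24 h, against 9.57, 10.03 and 10.50 at 0 h, and at 8.53, 8.23 and 8.30 in MPP at 24 h, against 8.14, 8.36 and 8.93 at 0 h. It rose in CDP without overlap, the MPP arrays overlapped, and the difference was 2.29 ± 0.56 (adjusted p = 0.0045). Il12b, a chain of interleukin-12, stood at 9.89, 6.76 and 9.99 in CDP at 24 h, against 6.59, 6.54 and 7.09 at 0 h, and between 6.37 and 6.71 on all 6 MPP arrays. Replicate 2 of CDP at 24 h stayed at the untreated level, and the difference was 2.23 ± 0.59 (adjusted p = 0.0092).

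The same array was the low one for other genes of this kind. The NF-κB inhibitor Nfkbia had 13.32, 12.19 and 13.45 in CDP at 24 h, against 11.76, 12.02 and 12.05 at 0 h, and between 10.82 and 11.08 in MPP at 24 h, against 11.01, 11.28 and 12.22 at 0 h. Replicate 3 of untreated MPP was the high array of its group, and the difference of 1.58 ± 0.41 came partly from a change of -0.54 in MPP. The costimulatory ligands Cd80 (1.77 ± 0.33) and Cd86 (1.40 ± 0.23) kept their calls without any single array, whereas Cd40, Il12b, Nfkbia, Nfkbie, Relb and Marcks did not. Cd86 lost its call without the replicate block (adjusted p = 0.028) and without replicate 1 of all groups (0.014). Without replicate 2 of CDP at 24 h the lists held 9 and 6 genes called higher, without replicate 1 of CDP at 24 h 2 and 1, without replicate 3 of CDP at 24 h 3 and 1, and without replicate 3 of MPP at 0 h 2 and 0. They held 2 and 0 as well without replicate 1 or 3 of CDP at 0 h and without replicate 2 or 3 of MPP at 24 h. Without the replicate block the counts were 1 and 0. The median of the costimulation list was 0.59 without replicate 1 of CDP at 24 h and 0.50 without replicate 1 of all groups, and that of the NF-κB list 0.45 without replicate 3 and 1.28 without replicate 2 of all groups.

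The member called lower was Cd28, a T cell costimulatory receptor also found on some myeloid cells. Its levels were 6.42, 6.50 and 6.48 in CDP at 24 h, against 11.40, 11.15 and 10.91 at 0 h, and 8.00, 8.49 and 7.75 in MPP at 24 h, against 10.53, 10.50 and 9.89 at 0 h. It fell in both without overlap and further in CDP, with a difference of -2.46 ± 0.16 (adjusted p = 1.7e-11). Of 19 interferon-stimulated genes 0 were called, against 1.85% of all genes. Their median was 0.66, and 0.37 without replicate 3 of MPP at 0 h. Il1a, the cytokine interleukin-1 alpha, had the widest gap of the chemokine and cytokine list without being called, 3.63 ± 1.29 (adjusted p = 0.061), with 10.42, 6.62 and 10.65 in CDP at 24 h, against 6.08, 6.04 and 6.29 at 0 h.

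**Figure D4:**
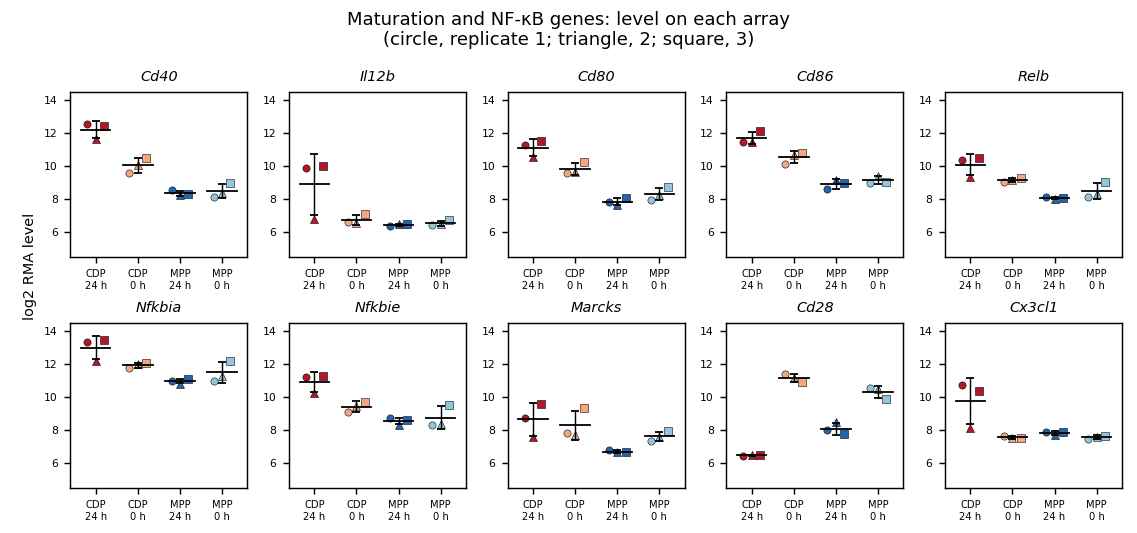
Log2 levels of 10 maturation and NF-κB genes on the 12 arrays, CDP at 24 h, CDP at 0 h, MPP at 24 h and MPP at 0 h, with circles, triangles and squares for replicates 1, 2 and 3. The triangle of CDP at 24 h is the low one for Il12b (6.76) and Nfkbia (12.19), and the square of MPP at 0 h is the high one for Nfkbia (12.22).

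Dendritic subset genes outside maturation differed in few members, and the share called over all genes was 1.85%. Siglech, a receptor of plasmacytoid dendritic cells and their precursors, stood at 12.00, 12.12 and 11.81 in CDP at 24 h, against 8.93, 9.04 and 8.31 at 0 h, and at 9.06, 8.58 and 8.35 in MPP at 24 h, against 7.05, 7.23 and 7.14 at 0 h. It rose in both cell types without overlap, and the difference was 1.69 ± 0.20 (adjusted p = 6.2e-07), called from 4 h onward. Irf4, a factor of conventional and migratory dendritic cells, differed by 1.36 ± 0.25, and was the 1 called of 15 conventional dendritic cell genes, whose median was -0.34. It lost the call without replicate 1 (adjusted p = 0.026) and without replicate 2 (0.014) of all groups. Itgax, which encodes CD11c, rose by 1.91 in CDP and by 2.75 in MPP, a difference of -0.83 with an interval from -1.14 to -0.52. Of the 10 measured genes of MHC class II presentation 1 was called, the transactivator Ciita (1.19 ± 0.19), and its difference was 0.94 without replicate 1 of CDP at 24 h. Of 28 hematopoietic transcription factors 0 were called and the median was -0.19. At the share over all genes a list of this size may well hold none. Id2, an inhibitor of E proteins needed for conventional dendritic cells, sat at the limit with 1.01 ± 0.09, and was 0.91 without replicate 3 of MPP at 0 h and between 0.97 and 0.99 without each of 5 other arrays.

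Chemokine receptors differed in both directions, with 2 genes higher and 4 lower of 15 and a median of -0.45. Besides Ccr6 and Cxcr2 they included Cx3cr1, the fractalkine receptor of monocytes and dendritic progenitors. Cx3cr1 stood at 11.05, 10.34 and 11.04 in CDP at 24 h, against 11.69, 11.57 and 11.75 at 0 h, and at 11.26, 11.19 and 11.18 in MPP at 24 h, against 10.10, 10.27 and 10.43 at 0 h. Neither change alone reached 1, while their difference was -1.80 ± 0.17 (adjusted p = 1.7e-08), and the gap of more than 1 between the cell types at 0 h was under 1 at 24 h. S1pr1, the receptor that draws cells toward blood sphingosine 1-phosphate, changed by 0.08 in CDP and rose by 1.32 in MPP (difference -1.24 ± 0.15).

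S phase and ribosome biogenesis genes had negative differences of small size. Of 25 S phase genes 0 were called, but all 25 differences were negative, from -0.78 to -0.05, with a median of -0.34. With no limit on size, 17 of the 25 had an adjusted p below 0.01, against 7.04% of all genes with a negative difference at that p. Among genes past a filter on dim genes the count was 17 as well, and the share of all genes 13.8%. The count was 11 without the replicate block (share 3.52%) and 11 without replicate 2 of MPP at 24 h (5.87%). It was 3 without replicate 1 (2.65%) and 3 without replicate 2 (4.12%). The S phase genes with the most negative values were Gins1, of the replicative helicase (-0.78), and Cdt1, which licenses replication origins (-0.70). In CDP the median change of the list was -0.34, and in MPP 0.01. Of 22 ribosome biogenesis genes 21 were negative, with a median of -0.40, and 13 had an adjusted p below 0.01 with no limit on size, against the same 7.04%. That count was 4 without the block, where the share of all genes was 3.52%, and 3 without replicate 1. For 21 genes of G2 and mitosis the median was -0.16, 20 were negative, and 5 passed that p with no limit on size. Such counts were not particular to these lists. They were 13 of 21 for amino acid stress, 12 of 21 for monocyte and macrophage and 10 of 18 for lysosome genes, and 0 of 16 for targets of NF-κB.

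Of 21 amino acid stress genes, 11 fell in CDP and 4 in MPP, the median difference was -0.57, and 2 were called, both lower. These were Phgdh, the first enzyme of serine synthesis (-1.34 ± 0.09), and Vldlr, a lipoprotein receptor (-1.72 ± 0.23). Asns, which encodes asparagine synthetase, fell by 1.57 in CDP and changed by -0.60 in MPP, and its difference of -0.98 missed the size limit. Of 19 lipid handling genes 5 were lower and 0 higher, led by Pltp, the phospholipid transfer protein. The 5 were 3 without the replicate block, without replicate 1 of CDP at 24 h or without replicate 3 of MPP at 0 h. Pltp stood at 8.27, 8.48 and 8.91 in CDP at 24 h, against 11.30, 11.44 and 11.14 at 0 h, and at 7.68, 7.89 and 7.70 in MPP at 24 h, against 7.95, 8.18 and 8.06 at 0 h. Untreated CDP stood alone at the high level, and the difference was -2.43 ± 0.18 (adjusted p = 2.1e-10). Pparg, the nuclear receptor of lipid storage, differed by -1.67 ± 0.14. Gstm1, a glutathione transferase, changed by -0.87 in CDP and rose by 1.08 in MPP (difference -1.95 ± 0.12), and Bcl2, the inhibitor of apoptosis, fell by 1.34 in CDP and changed by 0.31 in MPP (difference -1.66 ± 0.11).

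**Figure D5:**
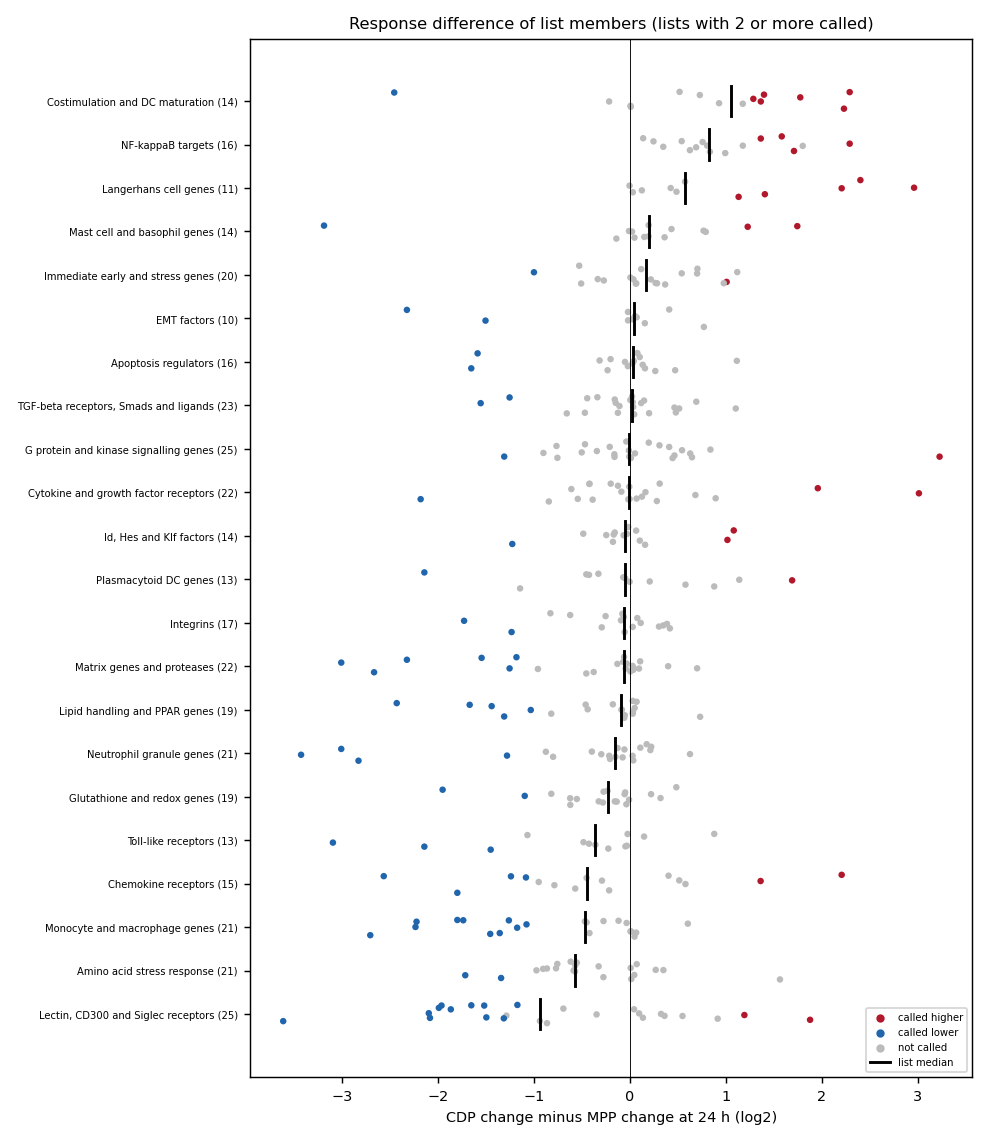
Response differences (log2, horizontal axis) of the measured members of the gene lists with at least 2 called genes, 1 dot for each gene and a line at the list median. The lectin, CD300 and Siglec list had its median at -0.94 and the costimulation list at 1.05, against 0.00 over all genes.

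Other responses were shared by the cell types. In 123 genes, 72 up and 51 down, both changes were called in the same direction and the difference was not, and in 72 of the 123 the 95% interval of the difference lay within 1 log2 unit either way. Vcan, which encodes the proteoglycan versican, stood at 6.89, 7.21 and 6.89 in CDP at 24 h, against 11.66, 11.38 and 12.02 at 0 h, and at 7.30, 8.55 and 8.32 in MPP at 24 h, against 12.44, 12.95 and 12.64 at 0 h. It fell by 4.69 in CDP and fell by 4.62 in MPP, a difference of -0.07 with an interval from -0.51 to 0.37. Chad, which encodes the matrix protein chondroadherin, rose by 4.43 in CDP and by 4.89 in MPP (difference -0.46, adjusted p = 0.06). Cd96, a receptor of T and NK cells, rose by 3.54 in CDP and by 3.55 in MPP, with an interval of the difference from -0.37 to 0.35. Kcne3, a potassium channel subunit, rose by 3.34 in CDP and by 3.50 in MPP. A call in 1 cell type did not by itself make a difference, since 227 genes were called in CDP and not in MPP, and 50 in MPP and not in CDP, without a called response difference.

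Most response differences were late. At 2 h 6 genes were called (0.0301%), at 4 h 28 (0.14%), at 8 h 82 (0.411%) and at 12 h 145 (0.727%), and each of these contrasts shares its 0 h arrays with that of 24 h. The time called 8 h here is given as 8 h in the sample titles and the study's methods, and as 6 h in a protocol note of the labels. Of the 144 genes higher at 24 h, 8 were first called at 4 h, 20 at 8 h, 16 at 12 h and 100 at 24 h. Of the 225 lower genes, 2 were first called at 2 h, 12 at 4 h, 25 at 8 h, 42 at 12 h and 144 at 24 h. None of the 369 was called in the other direction at an earlier time.

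Among the called genes, levels of the cell types moved apart in more genes than they came together. The genes were chosen for a difference of at least 1 on these same arrays. No share over all genes was taken, so the counts are a description only. In 208 of the 369 genes the mean levels of CDP and MPP were within 1 of each other at 0 h and more than 1 apart at 24 h, 93 of them with a positive and 115 with a negative difference. In 48 genes the levels were more than 1 apart at 0 h and within 1 at 24 h, as for Kit, Alox5, Cd22, Lox, Pltp and Cx3cr1. In 60 they were more than 1 apart at both times in the same order, and in 53 within 1 at both. Of the 144 genes with a positive difference, 44 were below the median level of all genes in MPP at both times, as were 20 of the 225 with a negative one.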

How the data were processed

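Total RNA of CDP and MPP was hybridised to Affymetrix Mouse Gene 1.0 ST arrays. The deposited values are log2 expression levels that the authors made with RMA in Affymetrix Power Tools, 1 value for each of 35556 probe sets and 36 arrays. Tool versions and a genome build are not given in the sources used here, and the RNA kit is named differently in the labels and the study's methods. The study itself worked with FARMS rather than RMA values, so its levels may differ. Arrays give no read depth, and their number limits the precision. The SD of a gene over the 3 arrays of a group had a median of 0.0637 to 0.0817.

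Of the probe sets, 21789 had 1 gene symbol, 1621 several and 12146 none in the platform annotation. Of those with 1 symbol, 21698 matched the mouse gene table by Entrez ID, and 0 symbols were updated. For 999 genes with more than 1 probe set, the one with the highest mean over the 36 arrays was kept, which gave 19938 genes. Limma 3.58.1 in R 4.3.3 (lmFit, eBayes, two-sided) was fitted to all 36 arrays (12 groups of 3) with a block for each replicate number of each cell type, leaving 20 residual degrees of freedom. Each contrast was adjusted over all genes by Benjamini-Hochberg, and genes were called at an adjusted p below 0.01 and a size of at least 1. The procedure was tested on simulated data. Values after ± are SE unless stated.

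The replicate numbers come from the sample labels. Deviations of same-numbered arrays from their group means correlated above 0.1 in 15 of 15 pairs of times in CDP (lowest 0.212) and in 15 of 15 in MPP (lowest 0.189), and in 11 of 18 across the cell types.

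The genes named were, among called genes, the 10 largest positive and 10 largest negative differences, the 6 largest among opposite responses (3 existed), the 6 largest led by MPP, 6 shared responses, and called members of 40 gene lists with 684 distinct genes measured. The members and lists were chosen with earlier results of these data known. Lists are described by counts and medians only, and each count stands against the 1.85% of all genes that were called. Alternatives covered the block, the arrays fitted, the probe set rule, a filter on dim genes, 2 rescalings, the variance model, array weights, the thresholds and leaving out arrays.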

Additional observations from a re-analysis of the deposited data

Results flagged for a closer look

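Each of the following genes differed between CDP and MPP in its response to 24 h of TGF-β1 by the limma interaction contrast itself, given as CDP minus MPP in log2 units. The positive differences were 4.04 for Cldn1, 3.38 for Ly6i, 3.23 for Gna14, 3.16 for Fam189a2, 3.01 for Ifnlr1, 2.96 for Cdh1, 2.93 for Kit, 2.90 for Alox5, 2.70 for P2rx5 and 2.64 for Rasgef1b. The negative ones that were mostly falls in CDP were -3.62 for Cd22, -3.43 for Ctsg, -3.10 for Tlr8, -3.01 for Mmp8, -2.83 for Hp, -2.75 for Gda, -2.71 for Fcgr3, -2.70 for Hacd4 and -2.67 for Lox. The negative ones with a called rise in MPP were -3.19 for Mcpt2, -2.57 for Cxcr2, -2.56 for Dhrs3, -2.54 for Cyp4f18, -2.52 for Nt5e, -2.47 for Padi2, -2.19 for Itm2a and -2.07 for Il6. Of these 27 genes, 23 were called under all 28 alternatives run, and Ly6i, Mcpt2, Rasgef1b and Il6 were not.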

How the results depend on the processing

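Of 102 named genes called for the response difference, 56 were called under all 28 alternatives, 46 lost the call under at least 1, and 0 changed sign. Without the replicate block 115 genes were called higher and 185 lower (main values 144 and 225), and all 300 were among the 369. Testing against a 1.5-fold difference in place of 0 called 71 higher and 155 lower. Quantile normalization moved the split to 164 higher and 204 lower, and centring each array to 154 and 221. Leaving out 1 array gave 124 to 173 genes higher and 217 to 247 lower, and leaving out 1 replicate number of all times 111 to 146 higher and 208 to 245 lower. For the CDP response those fits gave 257 to 306 up and 343 to 395 down, and for the MPP response 126 to 154 up and 80 to 94 down. The fit without replicate 3 of CDP at 2 h was chosen after seeing the data and called 146 higher and 232 lower. The counts of list members with no size limit were likewise added afterwards.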

Other observations

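Among the 279 called genes in no list, a few were singled out after their values were seen. Cd81, a tetraspanin, stood at 9.36, 9.07 and 9.39 in CDP at 24 h, against 12.06, 11.89 and 11.84 at 0 h, and between 12.89 and 12.94 on all 6 MPP arrays (response difference -2.63 ± 0.12, SE). Lyl1, a basic helix-loop-helix factor of early progenitors, fell by 2.24 in CDP and changed by 0.03 in MPP, and the receptor Notch1 fell by 1.60 in CDP and changed by 0.30 in MPP. Il12a, the partner chain of Il12b, moved opposite to it in CDP, with 7.92, 8.34 and 7.68 in CDP at 24 h, against 10.52, 10.10 and 10.07 at 0 h, while MPP held 9.69, 9.59 and 9.73 at 24 h, against 9.98, 9.79 and 9.75 at 0 h (difference -2.08 ± 0.15). Pdgfb, a growth factor for mesenchymal cells, rose by 2.10 in CDP and changed by -0.09 in MPP. Hmga2, a chromatin protein of fetal and early stem cells, changed by -0.12 in CDP and rose by 1.91 in MPP.

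Probe sets can disagree. Of the 17 called genes with more than 1 probe set, 14 had every other probe set with the same sign and 6 had another called the same way. For Dab2 the kept probe set gave -1.75 and the other 0.07, and for Ak4 they gave -2.38 and -0.51. Of 13767 probe sets with several symbols or none, fitted apart, 14 were called higher and 76 lower.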
